A study of Mus musculus with 48 samples.

Results

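The comparison of heterozygous with wildtype mice under control rearing used 16 of the 48 amygdala RNA samples of the series, namely 8 samples of Tph2 +/- C and 8 of Tph2 +/+ C, where C stands for the control condition without maternal separation (MS). It asked which genes differed in the amygdala when 1 of the alleles of *Tph2* was inactivated and no early-life stress was applied. All mice were C57BL/6 males of 4 months (C57BL/6N, by the study's account of how the line was bred), born to Tph2 +/- parents and therefore reared by a Tph2 +/- dam, and the study's methods state that they were housed alone after weaning and went through a series of behavioral tests before the tissue was taken. The null allele is present in every cell from conception on, and the amygdalae of both hemispheres were powdered together, so that each sample is the whole tissue of 1 mouse. The same contrast in Tph2 +/- MS and Tph2 +/+ MS mice (8 each), which were separated from their dams daily as pups, and the 8 Tph2 -/- C mice served for comparison. Litters are not named in the labels, so that p-values measure the spread between mice, some of which may be littermates. Of the 48440 genes in the table, 5643 had a mean of at least 10 counts over the 48 samples and were tested. *Lama5* and *Gm10634* lay just inside that limit with a mean of 10 counts, and *Gm28417* and *Gm2670* just outside with 9.98.

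Tryptophan hydroxylase 2, the product of *Tph2*, carries out the rate-limiting step of 5-HT synthesis in the neurons of the raphe nuclei, which send axons into the amygdala. Its RNA is made in the cell bodies in the brainstem and not in the amygdala, where 5-HT acts through receptors on local neurons and glia. Mice with 1 functional allele are generally reported to keep most of their brain 5-HT, while mice without any lack it.

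*Tph2* was listed at 0 counts in all 16 samples of the comparison, and over all 48 samples it had 2 counts in total, both in Tph2 -/- MS, which leaves the genotypes without a check in the counts. Counts on genes lay between 615229 and 6296568 per sample in the 16 libraries. Replicate 1 of Tph2 +/+ C and replicate 2 of Tph2 +/- C stood apart with 93.3% and 92.7% of their counts on *Gm42418* and *Lars2*, which were dropped, against 2.67% to 11.1% in the others, and in these libraries 75.8% and 77.8% of the uniquely placed pairs lay on no gene, against 97.3% to 97.6%. After the drop 419364 to 868469 counts remained per sample, and 3 counts made between 3.45 and 7.15 CPM before scaling, where CPM are counts brought to a common total per library. Such floors cover counting error only. Tissue labels could not be checked from marker genes, because none of the 6 amygdala markers reached a mean of 10 counts (highest mean 2.15) and of 8 neuron markers 1 did, *Syt1* with 14.9. The strand setting of the counting is not given in the sources used here. Where exons of a gene overlap those of a gene on the opposite strand, both are named, and the counts may come from either. With that setting unknown and most pairs on no gene, the counts of a gene with no annotated exon opposite may also come from RNA of the other strand, and this was not tested. In tissue RNA of this kind, fewer cells of a type and less RNA per cell cannot be told apart.

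In Tph2 +/- C compared to Tph2 +/+ C, 127 of the 5643 genes (2.25%) were differentially expressed genes (DEGs), that is, the nominal p in the quasi-likelihood test of edgeR was below 0.01 and the log2 fold change (lg2FC) was above 0.2 in either direction. Of these, 104 (1.84% of the genes tested) were higher and 23 (0.408%) were lower in Tph2 +/- C, so that 81.9% of the DEGs were higher. After adjustment in edgeR, 0 genes stayed below 0.05, the smallest adjusted p being 0.230, and 399 genes had an unadjusted p below 0.05. With DESeq2, 114 genes passed the DEG thresholds (11 of them lower), again with 0 at an adjusted p below 0.05 and 371 at an unadjusted one. A share of 1% of the genes tested would be 56.4 genes. The lg2FC of the higher DEGs ranged from 0.24 to 1.96 with a median of 0.71, and that of the lower DEGs from -2.27 to -0.24 with a median of -0.52. The median lg2FC of all genes tested was -0.01.

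By annotated type, 48 of the 104 higher DEGs were protein coding, 30 were antisense genes, 11 were TEC genes (transcripts that await experimental support), 5 were miRNA genes and 4 were non-coding genes that start at a shared promoter. Among the 23 lower DEGs 9 were protein coding. Of all 5643 genes tested, 3081 were protein coding, 1180 were antisense genes and 283 were TEC genes. Exons on the opposite strand overlapped in 87 of the higher DEGs (84.5% of those found in the annotation), in 31.8% of the lower DEGs and in 63.8% of all genes tested. The higher DEGs also were richer in G and C, with a median GC content of the longest transcript of 55.7%, against 45.9% in the lower DEGs and 48.8% in all genes tested.

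As examples of sequence, 90 bases were taken from 4 non-coding DEGs picked from those named below. Each is the first such stretch of the longest transcript that lay either wholly opposite coding sequence or clear of any other exon (GENCODE M21 on GRCm38, 5' to 3', G and C in capitals). The first pair were higher DEGs and the second pair lower DEGs.
Gm26571 (chr12:83951266-83951355, minus strand): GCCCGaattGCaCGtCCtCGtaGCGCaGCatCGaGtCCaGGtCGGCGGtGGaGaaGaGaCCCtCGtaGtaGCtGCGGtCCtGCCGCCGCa
Gm20402 (chr3:52268934-52269023, minus strand): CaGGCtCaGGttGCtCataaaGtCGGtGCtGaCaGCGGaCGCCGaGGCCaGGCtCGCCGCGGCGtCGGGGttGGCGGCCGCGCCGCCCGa
Gm44012 (chr6:84922675-84922764, plus strand): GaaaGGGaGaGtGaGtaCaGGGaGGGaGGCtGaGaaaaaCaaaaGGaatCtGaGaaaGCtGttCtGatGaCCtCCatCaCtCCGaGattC
Gm16093 (chr3:19240644-19240733, plus strand): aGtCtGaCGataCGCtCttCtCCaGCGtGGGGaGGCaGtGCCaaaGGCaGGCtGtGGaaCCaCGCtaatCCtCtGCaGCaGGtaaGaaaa
The stretches of *Gm26571* and *Gm20402* lie opposite coding sequence of *Riox1* and *Foxo1* and hold 65.6% and 73.3% G and C, whereas those of *Gm44012* and *Gm16093* hold 47.8% and 55.6%.

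Of the 12 higher DEGs with the smallest p, *Gnb5*, *Ntrk3* and *Nhsl1* still passed without Tph2 +/- C replicates 4, 6, 7 and 8, and the other 9 did not. These 4 replicates were picked after the data were seen, and only 4 Tph2 +/- C mice remain without them. Sorting the genes in this way is therefore a description. The number of Tph2 +/- C mice above every Tph2 +/+ C mouse ran from 3 of 8 in *Ntrk3* to 8 of 8 in *Gnb5*. *Gnb5* (chromosome 9, 75306288 to 75345876, plus strand) encodes the beta subunit of G proteins that pairs with RGS proteins in neurons. It had 15.996 to 28.7 CPM (median 22.1) in Tph2 +/+ C and 31.3 to 52.1 (median 35.1) in Tph2 +/- C. All 8 Tph2 +/- C values lay above all 8 Tph2 +/+ C values. This gave 21.97 ± 3.97 against 37.4 ± 7.10 CPM (SD, n = 8 each) and a lg2FC of 0.78 with a standard error of 0.19 (edgeR, adjusted p = 0.230). Only 2 of the 5643 genes (0.0354%) had groups that did not overlap, *Gnb5* and *Fam228b*, which was not a DEG. Over 248 bases, exons of *Gm19531* lie opposite to those of *Gnb5*.

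**Figure D1:**
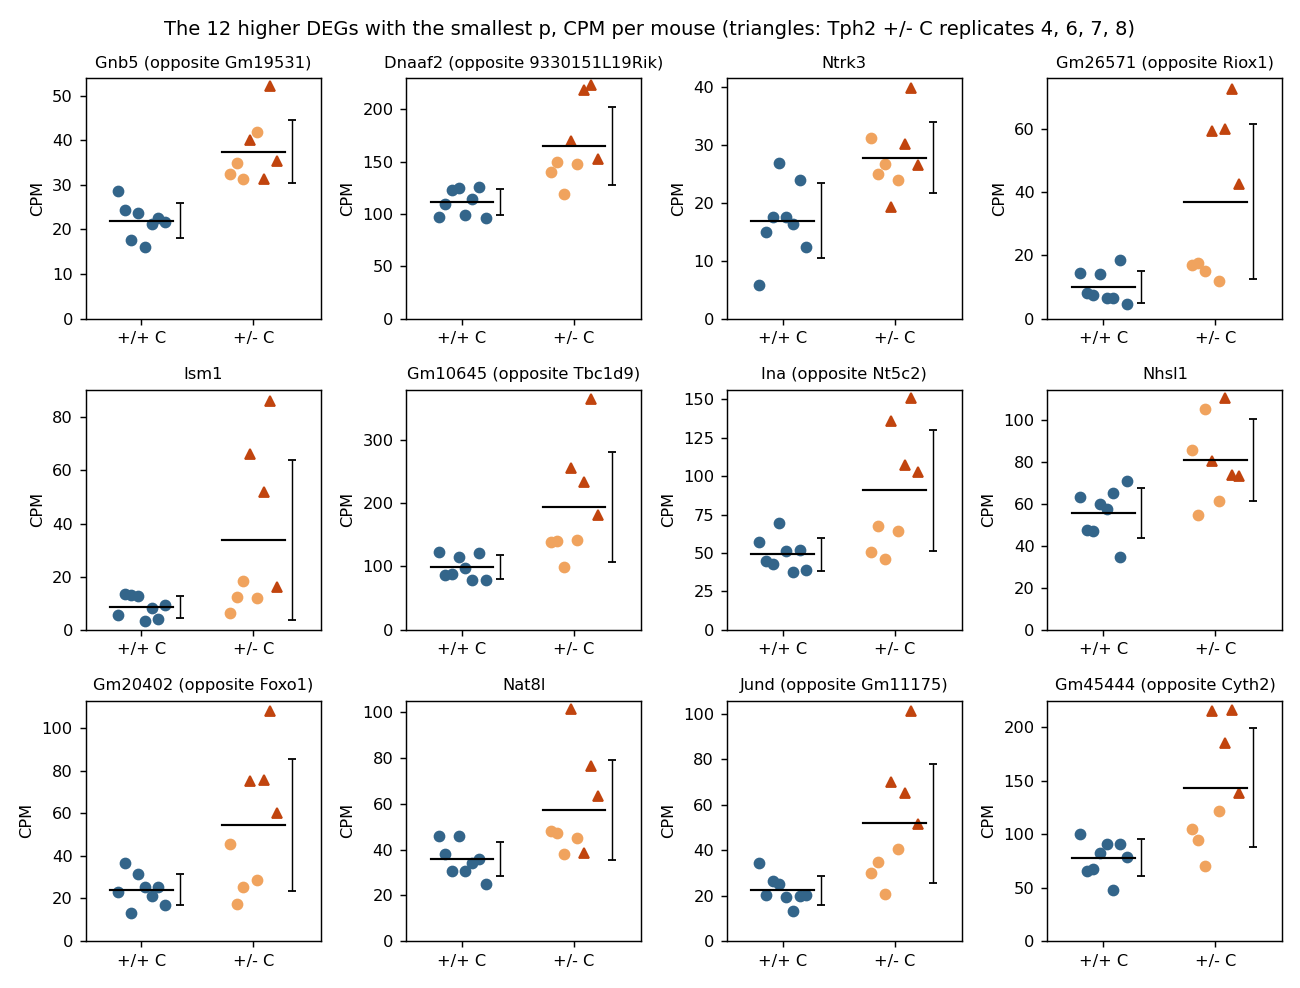
CPM of the 12 higher DEGs with the smallest p in each of the 16 mice, with one panel per gene, the group on the x axis and CPM on the y axis from 0. Points are mice, lines are group means, bars beside them are the SD (n = 8), and triangles mark Tph2 +/- C replicates 4, 6, 7 and 8, which sit above the other Tph2 +/- C mice in *Gm26571*, *Gm10645*, *Ina*, *Gm20402*, *Jund* and *Gm45444*, but not in *Ntrk3* or *Nhsl1*.

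*Dnaaf2* (chromosome 12, opposite *9330151L19Rik* over 1107 bases), which takes part in the assembly of ciliary dynein arms, had 95.9 to 126.2 CPM (median 112.0) in Tph2 +/+ C and 119.2 to 223 (median 151.3) in Tph2 +/- C. In 7 of 8 Tph2 +/- C mice the value was above every Tph2 +/+ C value, and the lg2FC was 0.57 (standard error 0.14). The 4 highest values were nevertheless those of replicates 4, 6, 7 and 8, without which the lg2FC was 0.30 and did not pass (nominal p of 0.0624). *Ntrk3* (chromosome 7, no exon opposite), the gene of the neurotrophin-3 receptor TrkC, had 5.74 to 26.8 CPM (median 16.9) in Tph2 +/+ C and 19.2 to 39.7 (median 26.5) in Tph2 +/- C, with 3 of 8 Tph2 +/- C mice above the Tph2 +/+ C range and a lg2FC of 0.68 (standard error 0.17). The lowest of these values lies under the floor of its library. *Nhsl1* (chromosome 10, no exon opposite) had 34.5 to 71.1 CPM (median 58.8) in Tph2 +/+ C and 54.9 to 110.7 (median 77.2) in Tph2 +/- C, with 6 of 8 Tph2 +/- C mice above the Tph2 +/+ C range and a lg2FC of 0.56 (standard error 0.15). For *Ntrk3* and *Nhsl1* the groups overlapped, but the higher values were spread over the group. Like *Gnb5*, both passed the DEG thresholds in each of the 18 alternative settings and without any 1 of the 16 libraries.

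*Gm26571*, an antisense gene on chromosome 12 that shares 748 exonic bases with *Riox1* on the opposite strand, had 4.64 to 18.6 CPM (median 7.73) in Tph2 +/+ C. In Tph2 +/- C, replicates 4, 6, 7 and 8 had 59.4, 60.2, 72.6 and 42.6 CPM, and the other 4 mice had 11.97 to 17.5, which is within the Tph2 +/+ C range. The means were 10.02 ± 5.00 and 37.02 ± 24.6 CPM (SD, n = 8 each), and the lg2FC was 1.90 with a standard error of 0.48 (edgeR, adjusted p = 0.230). *Gm20402*, opposite the forkhead transcription factor gene *Foxo1* on chromosome 3 over 674 bases, had 13.2 to 36.6 CPM (median 24.1) in Tph2 +/+ C. Its values were 75.1, 75.8, 108 and 60.3 CPM in the same 4 Tph2 +/- C mice and 17.5 to 45.5 in the others (lg2FC 1.18, standard error 0.32).

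*Ina*, which encodes alpha-internexin, an intermediate filament protein of neurons, lies on chromosome 19 with 456 exonic bases opposite to *Nt5c2*, the gene of a cytosolic nucleotidase. It had 37.5 to 69.4 CPM (median 47.97) in Tph2 +/+ C, and 136.2, 107.1, 150.7 and 102.9 CPM in Tph2 +/- C replicates 4, 6, 7 and 8 against 46.3 to 67.4 in the rest (lg2FC 0.89, standard error 0.23). *Jund*, the gene of an AP-1 transcription factor subunit on chromosome 8, has 877 exonic bases opposite to *Gm11175*. It had 13.04 to 34.4 CPM (median 20.2) in Tph2 +/+ C and 20.8 to 101.4 (median 45.9) in Tph2 +/- C (lg2FC 1.24, standard error 0.35). In both cases the opposite gene was itself a higher DEG, with a lg2FC of 1.39 for *Nt5c2* and 0.81 for *Gm11175*. A further such pair was *Zbtb11* (lg2FC 1.05) and *Zbtb11os1* (lg2FC 0.56). These were the only 3 pairs of DEGs opposite to each other, and the partners outside the 12 were looked up after their values were seen.

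*Ism1* (chromosome 2, no exon opposite), which encodes the secreted protein isthmin 1, had 3.20 to 13.6 CPM (median 8.71) in Tph2 +/+ C and 6.50 to 86.3 (median 17.3) in Tph2 +/- C, with a lg2FC of 1.92 (standard error 0.50). Its 3 highest mice were replicates 4, 6 and 7, while replicate 8 with 16.2 CPM lay beside the remaining mice. Several Tph2 +/+ C values of *Ism1* and *Gm26571* were near the floor, so that their lg2FC rest on few counts. *Nat8l* (chromosome 5, no exon opposite), the gene of the enzyme that makes N-acetylaspartate in neurons, had 24.7 to 45.9 CPM (median 35.1) in Tph2 +/+ C and 38.2 to 101.3 (median 47.8) in Tph2 +/- C (lg2FC 0.68, standard error 0.18).

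*Gm10645*, annotated as protein coding and opposite the Rab regulator gene *Tbc1d9* on chromosome 8 over 819 bases, had 78.2 to 123.4 CPM (median 92.8) in Tph2 +/+ C and 98.4 to 364 (median 162) in Tph2 +/- C, with 7 of 8 mice above the Tph2 +/+ C range (lg2FC 0.98, standard error 0.26). *Gm45444*, a TEC gene opposite *Cyth2* on chromosome 7 over 381 bases, had 47.3 to 100.5 CPM (median 80.4) and 70.6 to 216 (median 130), respectively (lg2FC 0.89, standard error 0.25). *Cyth2* encodes an exchange factor of Arf GTPases. In these genes, too, the upper values were those of replicates 4, 6, 7 and 8.

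Over the whole set, the 4 highest Tph2 +/- C values were those of replicates 4, 6, 7 and 8 in 64 of the 104 higher DEGs (61.5%), compared to 225 of all 5643 genes (3.99%). At the median, 4 of 8 Tph2 +/- C mice were above every Tph2 +/+ C mouse, against 1 over all genes tested. This number was 7 or 8 in 5 of the 104 genes, a count given without its share over all genes tested. The mean level of the 104 genes, as log2(CPM + 1) minus the Tph2 +/+ C mean, was 1.24, 1.09, 1.41 and 0.76 in replicates 4, 6, 7 and 8, and between 0.08 and 0.36 in the other 4 Tph2 +/- C mice. In Tph2 +/+ C it lay between -0.29 and 0.22. The 104 genes were called on these same mice, and the 4 replicates were picked after the values were seen. The counts and levels of this set are therefore a description. Without these 4 libraries, an alternative chosen after the data were seen, 25 genes passed the DEG thresholds (13 higher, 12 lower), 13 of which were among the 127, and 130 genes had an unadjusted p below 0.05. Without replicate 7 or replicate 4 of Tph2 +/- C alone the number was 63 or 76, and it was between 85 and 171 without any other 1 of the 16 libraries. Of the 12 genes described, *Gnb5*, *Ntrk3* and *Nhsl1* still passed without the 4 libraries, with lg2FC of 0.67, 0.60 and 0.49, and the other 9 did not, with *Ina* at 0.19 (nominal p of 0.466) and *Gm26571* at 0.60 (nominal p of 0.336).

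**Figure D2:**
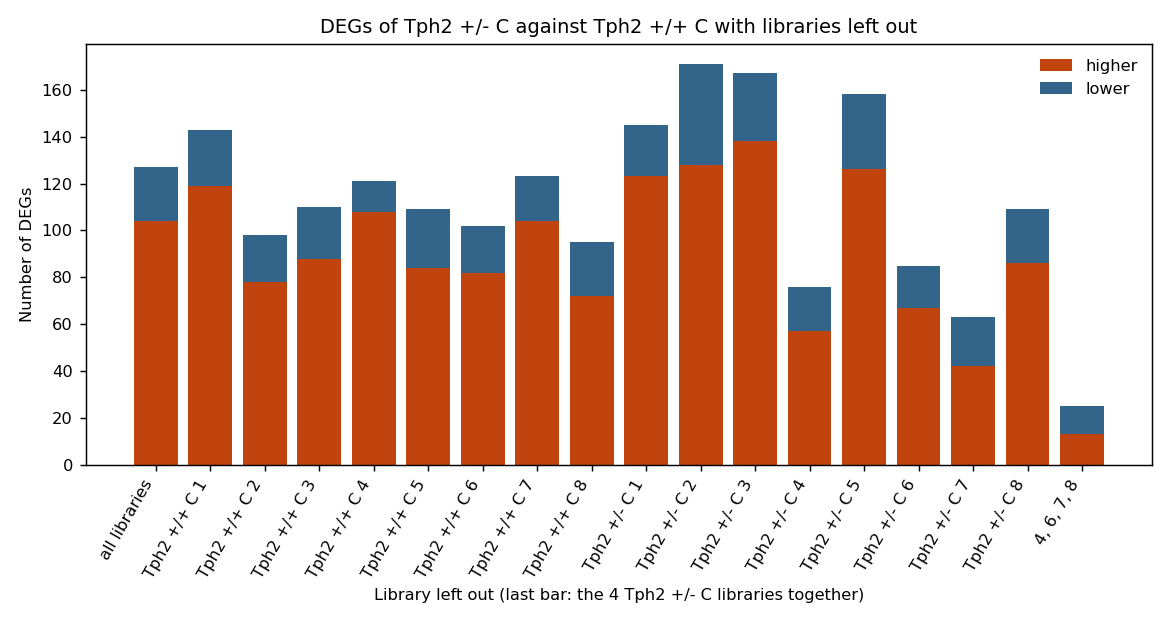
Number of DEGs (y axis, from 0; higher and lower stacked) of Tph2 +/- C against Tph2 +/+ C with all libraries, with each of the 16 libraries left out in turn, and without Tph2 +/- C replicates 4, 6, 7 and 8 together (last bar). The bars range from 63 to 171 DEGs when 1 library is left out and drop to 25 without the 4, which were picked after the data were seen.

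The labels give animal numbers, which are not stated to mark a batch. The highest numbers in the series belong to 7 controls, among them replicates 7 and 8 of both groups. Without these 7 mice, 30 genes passed the DEG thresholds (16 higher, 14 lower), of which 22 were among the 127. Of the 12 higher genes described, *Ism1*, *Gm10645*, *Ina*, *Gm20402*, *Nat8l* and *Jund* did not pass without them, with lg2FC of 1.499, 0.78, 0.64, 0.83, 0.49 and 0.94. With membership in these 7 as a covariate there were 124 DEGs. The first principal component of all 48 libraries, with 15.2% of the variance, followed the slope of each library's log2 CPM on GC content (Pearson's r = 0.992, Spearman's rho = 0.981, over libraries of all 6 groups and given as a description). This slope was between -0.19 and 0.15 per 10 percentage points of GC in Tph2 +/+ C and between -0.07 and 0.18 in Tph2 +/- C, with 0.18, 0.12, 0.09 and -0.07 in replicates 4, 6, 7 and 8. When genes were split by GC content into 5 groups of like size, the group richest in G and C held 60 of the 104 higher DEGs (5.34% of its 1124 genes), and the poorest held 4 (0.356% of its 1125). The median lg2FC was -0.08 in the poorest and 0.08 in the richest group. With the GC trend of each library removed, 108 genes passed (82 higher, 26 lower), 97 of them among the 127.

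The 16 higher DEGs that were found in the annotation and had no exon opposite had a median lg2FC of 0.71, as had the 87 with one, and 15 of them were protein coding, while 1 further higher DEG was not in the annotation. Beside the genes named above they include, chosen after their values were seen, *Nefh* with a lg2FC of 0.95, which encodes the heavy neurofilament subunit, *Basp1* with 0.96, which encodes a membrane protein of growing axons, *Pdgfb* with 0.78, which encodes a growth factor for pericytes, and *Zic5* with 0.73, which encodes a transcription factor and had 11.1 ± 3.76 CPM in Tph2 +/+ C and 19.3 ± 5.19 in Tph2 +/- C (SD, n = 8 each). In 5 of the 16, *Nefh* and *Basp1* among them, the 4 highest Tph2 +/- C values were those of replicates 4, 6, 7 and 8. This was a smaller share than the 58 of the 87. *Gm43137*, opposite *Ankle2* on chromosome 5, had the highest lg2FC of the DEGs with 1.96.

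The mean level of the 23 lower DEGs, on the same scale as above, was between -0.66 and -0.32 in the 8 Tph2 +/- C mice and between -0.09 and 0.12 in the 8 Tph2 +/+ C mice. The 23 genes were chosen on these samples, so that this separation is a description. In 4 of them 6 or more Tph2 +/- C mice lay below every Tph2 +/+ C mouse. This count and the next belong to the same description and are given without their share over all genes tested. Replicates 4, 6, 7 and 8 were the 4 lowest Tph2 +/- C mice in 2 of the 23, *4930516B21Rik* and *Gm22558*, which were looked up after their values were seen.

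**Figure D3:**
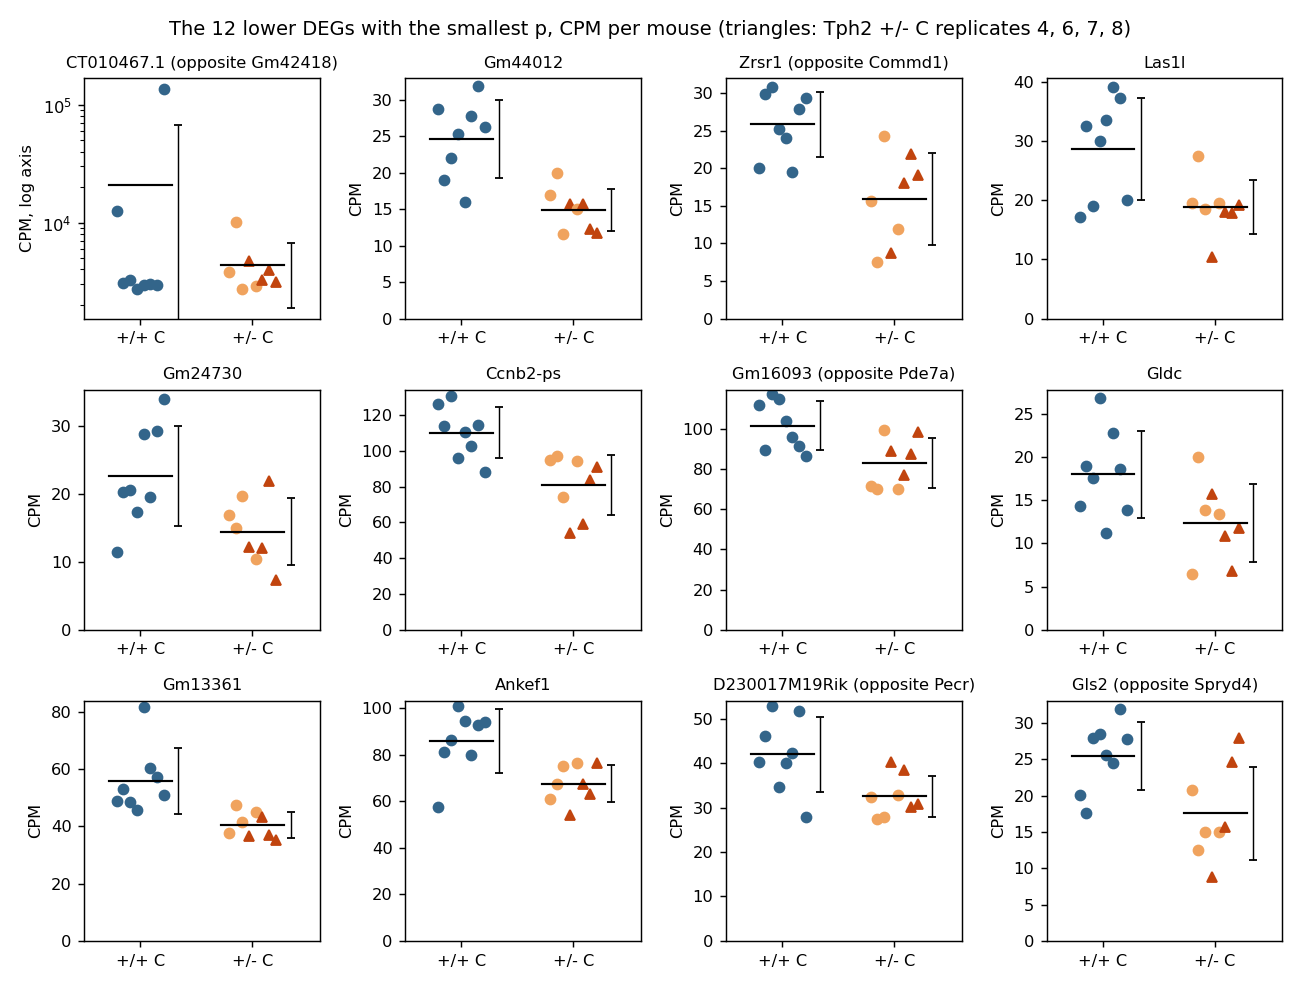
CPM of the 12 lower DEGs with the smallest p in each of the 16 mice, laid out as for the higher DEGs, with CPM on the y axis from 0 except for *CT010467.1*, which has a log axis. In *CT010467.1* 1 Tph2 +/+ C mouse lies at 135664 CPM while the other mice of both groups lie between 2722 and 12429, and in *Gm44012* and *Zrsr1* 6 of 8 Tph2 +/- C mice lie below the Tph2 +/+ C range.

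*Zrsr1* (chromosome 11, 22972005 to 22976496, plus strand), an imprinted gene that encodes a protein related to the splicing factor U2AF, has 412 exonic bases opposite to *Commd1*, in whose locus it lies. It had 19.6 to 30.8 CPM (median 26.6) in Tph2 +/+ C and 7.49 to 24.3 (median 16.8) in Tph2 +/- C. Here 6 of 8 Tph2 +/- C mice lay below the Tph2 +/+ C range, and the lg2FC was -0.65 with a standard error of 0.18 (edgeR, adjusted p = 0.289). *Zrsr1* passed the DEG thresholds in all 18 alternative settings, without the 4 libraries included (lg2FC -0.73), and without any 1 library.

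*Gm44012*, an antisense gene on chromosome 6 whose exons overlap no exon on the opposite strand, had 15.996 to 31.9 CPM (median 25.8) in Tph2 +/+ C and 11.6 to 19.97 (median 15.3) in Tph2 +/- C (lg2FC -0.74, standard error 0.20). Without those 7 high-numbered controls its lg2FC was -0.55 and did not pass (nominal p of 0.0251). *Las1l* (chromosome X), which encodes a factor of ribosome biogenesis, had 17.2 to 39.1 CPM (median 31.3) and 10.5 to 27.5 (median 18.8), with a lg2FC of -0.64 (standard error 0.20). Its groups overlapped in 7 of 8 Tph2 +/- C mice. *Ccnb2-ps*, a pseudogene of cyclin B2 on chromosome 8, had 88.1 to 130.5 CPM (median 112.1) and 54.1 to 97.4 (median 87.4), with a lg2FC of -0.45 (standard error 0.14). As for *Gm13361* (chromosome 2, lg2FC -0.47, standard error 0.15), also a processed pseudogene, reads may be shared with the parent gene, so that both are uncertain.

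*Gldc* (chromosome 19), the glycine decarboxylase of the glycine cleavage system, had 11.2 to 26.8 CPM (median 18.1) in Tph2 +/+ C and 6.50 to 19.97 (median 12.6) in Tph2 +/- C (lg2FC -0.61, standard error 0.20). *Gls2* (chromosome 10, opposite *Spryd4* over 97 bases), a glutaminase, had 17.6 to 31.9 CPM (median 26.7) and 8.73 to 27.9 (median 15.3), with a lg2FC of -0.52 (standard error 0.18). Both groups overlapped in each gene. *Gls2* did not pass without replicate 3, 4, 7 or 8 of Tph2 +/+ C or replicate 2, 3, 4, 5 or 6 of Tph2 +/- C (lg2FC from -0.64 to -0.43 over all libraries left out), and *Gldc* not without replicate 4 or 6 of Tph2 +/+ C or replicate 1 or 7 of Tph2 +/- C (from -0.69 to -0.49).

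*Gm16093* (chromosome 3, opposite *Pde7a* over 48 bases), an antisense gene beside a cAMP phosphodiesterase gene, had 86.6 to 117.3 CPM (median 100.1) in Tph2 +/+ C and 69.9 to 99.6 (median 82.3) in Tph2 +/- C, with a lg2FC of -0.28 (standard error 0.09). *D230017M19Rik* (chromosome 1), a long intergenic RNA with 175 bases opposite to *Pecr*, a gene of peroxisomal fatty acid elongation, had a lg2FC of -0.37 (standard error 0.13), *Ankef1* (chromosome 2) one of -0.36 (standard error 0.12) and the small nucleolar RNA gene *Gm24730* (chromosome 17) one of -0.66 (standard error 0.20). These calls were lost when single libraries were left out. *Gm16093*, *Gldc*, *D230017M19Rik* and *Gls2* also did not pass with DESeq2 (nominal p of 0.0159, 0.0172, 0.0252 and 0.0178) or when only the 16 samples entered the fit. Without those 7 high-numbered controls *Gm24730*, *Gldc*, *Gm13361*, *Ankef1* and *D230017M19Rik* did not pass, and without Tph2 +/- C replicates 4, 6, 7 and 8 *Las1l*, *Ccnb2-ps*, *Gm24730*, *Gldc*, *Gm13361* and *Ankef1* did not. In the first case their lg2FC were -0.47, -0.55, -0.43, -0.33 and -0.36, and in the second, with 4 Tph2 +/- C mice left, they were -0.51, -0.31, -0.56, -0.52, -0.40 and -0.32, all in the same direction as with all libraries. *D230017M19Rik* no longer passed without any 1 of 8 libraries, namely replicates 2, 3, 6 and 7 of Tph2 +/+ C and 2, 3, 7 and 8 of Tph2 +/- C (lg2FC from -0.43 to -0.31), *Gm16093* without replicate 3 or 4 of Tph2 +/+ C or replicate 2 or 5 of Tph2 +/- C (from -0.33 to -0.24), *Ankef1* without replicate 4 of either group (from -0.40 to -0.31), *Gm24730* without replicate 8 of Tph2 +/+ C (from -0.77 to -0.55) and *Gm13361* without replicate 5 of Tph2 +/+ C (from -0.50 to -0.37).

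The rRNA gene *CT010467.1*, with 1822 bases opposite to *Gm42418* on chromosome 17, had the smallest p of all DEGs and the lowest lg2FC (-2.27, standard error 0.51). It had 2722 to 135664 CPM (median 3054) in Tph2 +/+ C and 2728 to 10125 (median 3512) in Tph2 +/- C. The highest value was that of replicate 8 of Tph2 +/+ C, without which the lg2FC was -0.00 and the gene was not called, and with DESeq2 it was 0.03. The 2 groups overlapped almost fully and the medians differed in the opposite direction to the lg2FC. The same gene was the only one with an adjusted p below 0.05 in Tph2 -/- C compared to Tph2 +/+ C (edgeR, 0.0231, lg2FC -2.69), where the same Tph2 +/+ C mouse takes part.

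After MS, the higher DEGs did not show the same direction. For Tph2 +/- MS compared to Tph2 +/+ MS, which share no mouse with the control-reared groups, 74 genes (1.31%) were DEGs, 34 higher (0.603%) and 40 lower (0.709%), and neither edgeR nor DESeq2 left a gene at an adjusted p below 0.05 (0 in both), while 324 and 284 had an unadjusted one. Of the 104 higher DEGs of the control-reared mice, 95 had a negative lg2FC after MS, 0 were called higher and 4 were called lower, and their median lg2FC was -0.35, beside -0.00 over all genes tested. *Gm26571* had 37.2 ± 28.97 CPM in Tph2 +/+ MS and 22.6 ± 19.6 in Tph2 +/- MS (SD, n = 8 each; lg2FC -0.70), *Ina* had 89.5 ± 46.7 and 74.9 ± 22.9 (lg2FC -0.25), and *Gnb5* had 34.9 ± 13.6 and 28.2 ± 7.66 (lg2FC -0.31). None of these 3 passed the thresholds after MS. *Ntrk3* and *Nhsl1* had positive lg2FC of 0.12 and 0.33 and were not called. Of the 23 lower DEGs 14 had a negative lg2FC after MS and 1 was called lower (median -0.02).

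**Figure D4:**
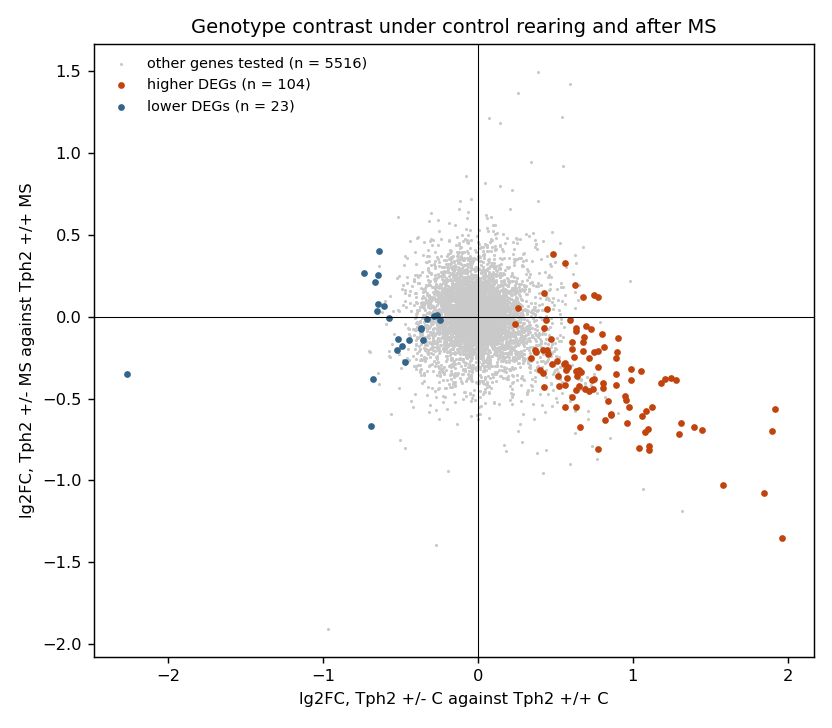
lg2FC of Tph2 +/- against Tph2 +/+ under control rearing (x axis) and after MS (y axis) for the 5643 genes tested, 1 point per gene. The 104 higher DEGs of the control-reared comparison lie to the right by choice and mostly below the horizontal line, with 95 at a negative lg2FC after MS, and the 23 lower DEGs lie on both sides of it.

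The difference of the genotype contrast between the rearing conditions was tested in the same model, and 179 genes (3.17%) passed the thresholds, 29 with a positive (0.514%) and 150 with a negative difference (2.66%). After adjustment 0 genes stayed below 0.05 with edgeR and 3 with DESeq2, against 469 and 426 before it. All 104 higher DEGs had a negative difference and 82 of them passed, but they were chosen on the control-reared mice that enter it. The high level of the 104 genes was not limited to Tph2 +/- C mice. It was 1.32, 1.38 and 0.85 in replicates 7, 8 and 2 of Tph2 +/+ MS, 1.04 in replicate 8 of Tph2 +/- MS, and 0.83 and 0.75 in replicates 2 and 5 of Tph2 -/- MS, on the scale of log2(CPM + 1) minus the Tph2 +/+ C mean. The group median was 0.56 for Tph2 +/- C and 0.11 for Tph2 -/- C, while the MS groups had 0.52 (Tph2 +/+), 0.28 (Tph2 +/-) and 0.26 (Tph2 -/-).

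**Figure D5:**
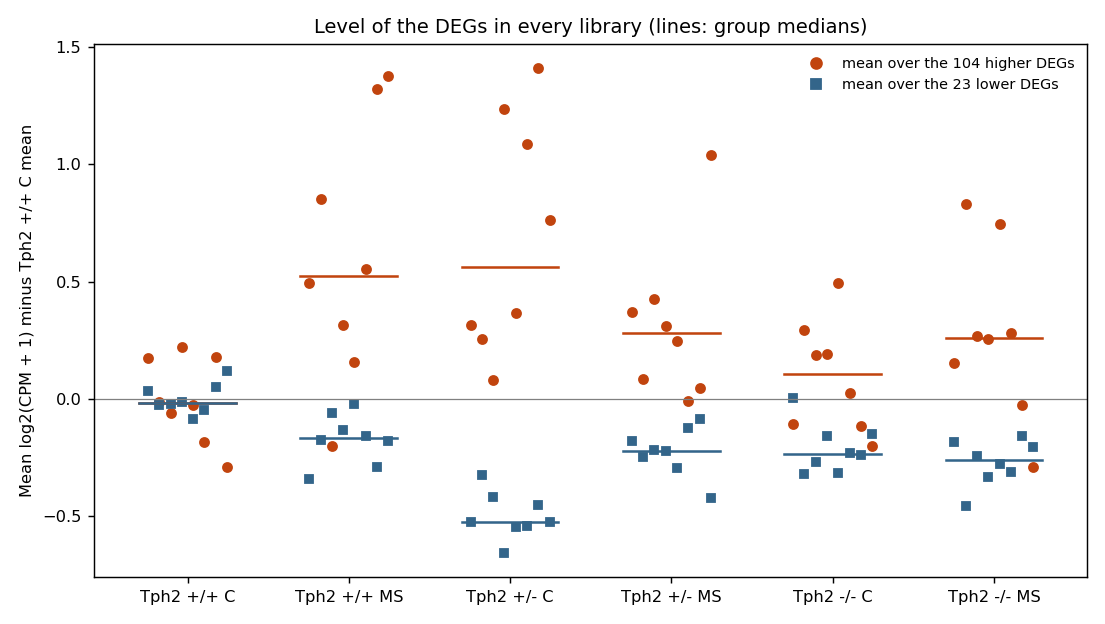
Mean log2(CPM + 1) over the 104 higher DEGs (circles) and the 23 lower DEGs (squares) in each of the 48 libraries, relative to the Tph2 +/+ C mean (y axis), by group (x axis), with lines at the group medians. For the higher DEGs, single libraries outside Tph2 +/- C reach 1.38 in Tph2 +/+ MS, 1.04 in Tph2 +/- MS and 0.83 in Tph2 -/- MS. For the lower DEGs, which were chosen as low in Tph2 +/- C, its 8 libraries lie lowest as a group (median -0.53). Their medians are also negative in Tph2 +/+ MS (-0.17), Tph2 +/- MS (-0.22), Tph2 -/- C (-0.23) and Tph2 -/- MS (-0.26).

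In Tph2 -/- C compared to the same Tph2 +/+ C mice, 40 genes (0.709%) were DEGs, 29 higher (0.514%) and 11 lower (0.195%). Because the Tph2 +/+ C mice are shared, values are only set side by side. For *Gnb5* the lg2FC was 0.78 in Tph2 +/- C and 0.27 in Tph2 -/- C, for *Ntrk3* 0.68 and 0.40, for *Nhsl1* 0.56 and 0.41, for *Gm26571* 1.90 and 0.58, for *Ina* 0.89 and 0.14, and for *Zrsr1* -0.65 and -0.06. Of the 104 higher DEGs 71 were positive and 2 were called higher in Tph2 -/- C (median 0.07), and of the 23 lower DEGs 22 were negative and 2 were called lower (median -0.16).

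Of the 26 genes of the serotonin system 3 had a mean of at least 10 counts, and 2 tested genes lay opposite to a member, with median lg2FC of -0.04 and 0.05. None of these was a DEG, beside 2.25% of all genes tested, and with so few genes this says little about the system. *Slc18a2*, the vesicular monoamine transporter gene (opposite *Gm29261*), had 224 ± 29.8 CPM in Tph2 +/+ C and 217.5 ± 28.4 in Tph2 +/- C (SD, n = 8 each; lg2FC -0.04, standard error 0.17). *Htr2b*, a 5-HT receptor gene (opposite *Psmd1*), had 173 ± 14.2 and 159 ± 17.9 CPM (lg2FC -0.13, standard error 0.09). *Gm42413*, opposite *Qdpr*, the gene of an enzyme that regenerates the cofactor of TPH2, had 734 ± 67.4 and 749.8 ± 49.4 CPM (lg2FC 0.03, standard error 0.08). The groups overlapped in each.

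In the other pathway lists, too, 0 of the listed genes were called, beside 2.25% of all genes tested. This covers the listed genes only. *Grin3b*, an NMDA receptor subunit gene on chromosome 10 that was not on the lists and was chosen after its values were seen, was a higher DEG with 27.7 ± 11.5 CPM in Tph2 +/+ C and 56.01 ± 32.7 in Tph2 +/- C (SD, n = 8 each; lg2FC 1.06, standard error 0.34). Its exons overlap those of *Tmem259* on the opposite strand over 1059 bases, and its 4 highest Tph2 +/- C values were those of replicates 4, 6, 7 and 8. Of 41 glutamate and GABA genes 12 were tested, with 10 opposite to a member (medians 0.05 and 0.07). Among the most abundant were *Grin1os*, opposite the NMDA receptor subunit gene *Grin1*, with 2147 ± 280 CPM in Tph2 +/+ C and 2250 ± 268 in Tph2 +/- C and *Gm14329* opposite *Grin2b*, with 383 ± 45.2 and 409.97 ± 63.6. Among 24 neuropeptide genes 0 were tested, and the 2 genes opposite to a member were *A830012C17Rik* opposite the proenkephalin gene *Penk* (215 ± 74.2 and 178 ± 48.9 CPM) and *Parpbp* opposite the melanin-concentrating hormone gene *Pmch* (5.90 ± 8.17 and 12.6 ± 17.1 CPM, lg2FC 0.98, standard error 1.25). Replicate 5 of each group stood highest for *Parpbp* with 25.6 and 53.9 CPM, and its lg2FC ranged from 0.06 without that Tph2 +/- C mouse to 1.81 without that Tph2 +/+ C mouse. Immediate early genes, which report recent neuronal activity, were tested in 1 of 19 cases, with 2 opposite genes. *Junb* (opposite *Prdx2*) had 428 ± 51.9 and 408 ± 49.1 CPM, *Junos* opposite *Jun* had 99.9 ± 14.2 and 115.4 ± 33.7, and *Gm45346* opposite *Bdnf* had 37.1 ± 11.7 and 42.5 ± 13.1.

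Of 18 glucocorticoid and stress hormone genes 2 were tested, with 1 opposite gene (medians 0.27 and 0.17). *Hsp90ab1*, a chaperone of steroid receptors, had 81.1 ± 29.7 CPM in Tph2 +/+ C and 103.5 ± 46.6 in Tph2 +/- C (lg2FC 0.35, standard error 0.26). The mineralocorticoid receptor gene *Nr3c2* had 28.1 ± 10.8 and 32.0 ± 9.99 CPM, and *Gm10649* on its opposite strand 70.2 ± 16.4 and 79.4 ± 8.38. Of 31 forebrain transcription factor genes 3 were tested with 6 opposite genes (medians -0.03 and 0.05), of which *Dlx1* (opposite *Dlx1as*) was the most abundant with 353 ± 26.4 and 362 ± 60.2 CPM, and of 15 DNA methylation genes 2 with 4 opposite genes (medians 0.26 and -0.08), of which *Tdg* (opposite *Glt8d2*) was the most abundant with 90.9 ± 17.3 and 96.4 ± 15.9 CPM. Of 37 genes of the mitochondrial genome 15 were tested (median -0.10), led by *mt-Ts1* (opposite *mt-Co1*) with a lg2FC of -0.24 (standard error 0.19).

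Of the markers of cell types and neighboring regions, 0 to 3 per list could be tested, and 0 were called, beside 2.25% of all genes tested, so that the count says little. The summed level of the oligodendrocyte markers was 653 to 738 CPM in Tph2 +/+ C and 545 to 738 in Tph2 +/- C, led by *Cnp* (opposite *Dnajc7*) with 605 ± 25.6 and 589 ± 50.9. For astrocyte markers the sum was 60.3 to 155 and 50.7 to 162, for microglia 233 to 323 and 244 to 326, for neuron markers 28.7 to 89.7 and 34.9 to 96.2 (*Syt1* with a lg2FC of 0.43), for endothelium 0 to 10.8 and 1.203 to 9.99, and for blood 410 to 602 and 306 to 602 CPM. For markers of structures next to the amygdala it was 100.5 to 187 and 114.6 to 184 for choroid plexus, 12.6 to 37.3 and 16.5 to 32.5 for striatum, and 17.9 to 51.2 and 24.7 to 36.7 for hypothalamus. The ranges overlapped for every one of these lists, at the low counts that most markers had. Among the genes opposite to a marker, none of which was a DEG, *Gm13872* opposite *Slc1a2* had 3294 ± 281 and 3270 ± 255 CPM, *1700003D09Rik* opposite *Ppp1r1b* had 285 ± 61.4 and 313 ± 39.9, *Gigyf2* opposite *Kcnj13* had a lg2FC of 0.39 (standard error 0.59) and *Ctcf* opposite *Agrp* and *Gm5914* one of 0.07 (standard error 0.19). *Csf1r* of microglia (opposite *Hmgxb3*) and *Alas2* of blood (opposite *Apex2*) had a lg2FC of 0.06 and -0.10.

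No difference in a library measure passed its test. The counts on genes, the shares on *Gm42418* and *Lars2*, without a gene and on mitochondrial genes, and the share of alignments that were not unique had two-sided exact permutation p-values between 0.2002 and 0.974 over 8 against 8 mice, all with an adjusted p of 0.974 over the 5 measures. The smallest p belonged to the share of alignments that were not unique, with 12.3 ± 0.891% in Tph2 +/+ C and 12.8 ± 0.576% in Tph2 +/- C (SD, n = 8 each). In the other measures 1 library of each group stood far from the rest, so that these tests could find only large shifts. Without the libraries rich in *Gm42418*, the share of alignments that were not unique was 12.1 ± 0.824% and 12.8 ± 0.597% (SD, n = 7 each; two-sided exact permutation p = 0.0833, adjusted p = 0.417).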

How the data were processed

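RNA of 16 amygdala samples was compared, and all 48 samples entered the fit. The authors deposited raw read pair counts per Ensembl gene, without normalization. Per the labels, libraries were stranded total RNA, read as pairs, and the build was GRCm38.p5, and the submitters' processing notes name STAR, HTSeq and DESeq2. The annotation and the strand setting are not given in the sources used here. All columns were matched to a sample.

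The 5 special entries (97.0% of the sum of the table), *Lars2* and *Gm42418* were left out, and genes with a mean of at least 10 counts were kept. Counts were scaled by TMM and fitted with edgeR 4.0.16 (R 4.3.3), with 1 coefficient per group and without a block. The quasi-likelihood F test with Benjamini-Hochberg adjustment was used, and the thresholds of a DEG are those of the study, which used DESeq2. The standard error is the lg2FC divided by the root of F. Alternatives were DESeq2 1.42.0, other normalizations and filters, covariates, a replicate block and left-out libraries. On simulated counts for this comparison (5643 genes), 44 of 67 genes at a lg2FC of 0.5, 66 of 67 at 1, 66 of 66 at 2 and 51 of 5443 unchanged genes were called. Each gene was drawn on its own, so that these numbers do not carry over to genes that move together between libraries. CPM use TMM library sizes, and log2 levels use a pseudocount of 1. Library measures were tested by exact permutation of the means in Python 3.11.15 (NumPy 2.4.6, SciPy 1.17.1, pandas 2.3.3). Plots were made in matplotlib 3.10.9.

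Genes were placed with GENCODE M21 (48058 of 48440 IDs found), GC content is that of the longest transcript, and a gene lies opposite to another where exons overlap on different strands. Named genes are *Tph2*, the 12 DEGs with the smallest p in each direction, list DEGs (there were none) and up to 3 of the most abundant genes of each list, for which 1 to 3 are given. For 1 of these genes the result is not reported here. The comparison, the lists and this rule were chosen with earlier results of these data known. The counts left per sample and 8 mice per group limit the precision of low genes.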

Additional observations from a re-analysis of the deposited data

Results flagged for a closer look

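Of 58 groups of 8 values that were examined, 11 held a mouse whose gap to the nearest other mouse, divided by the range of the group, was above Dixon's critical value, and chance gives about 1 in 20. For *CT010467.1* these were replicate 8 of Tph2 +/+ C with 135664 CPM and replicate 2 of Tph2 +/- C with 10125 CPM, and for *Gm13361* it was replicate 5 of Tph2 +/+ C with 81.6 CPM. The other 8 belonged to replicate 1 of Tph2 +/+ C and replicate 2 of Tph2 +/- C, which had 6296568 and 6128142 counts on genes, 93.3% and 92.7% of them on *Gm42418* and *Lars2*, 75.8% and 77.8% of pairs without a gene, and mitochondrial counts that equal 5.51% and 5.46% of the counts left after the drop.

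For 15 of the 24 named DEGs the genotype contrast differed between MS and C at a nominal p below 0.01, and after adjustment in edgeR 0 stayed below 0.05. The genes were chosen on the control-reared mice, which also enter this difference, so that it is no independent evidence. The lg2FC after MS minus that under control rearing was -1.08 for *Gnb5*, -0.89 for *Dnaaf2*, -2.59 for *Gm26571*, -2.48 for *Ism1*, -1.30 for *Gm10645*, -1.14 for *Ina*, -1.58 for *Gm20402*, -0.80 for *Nat8l*, -1.61 for *Jund* and -1.31 for *Gm45444*. Among the lower DEGs it was 1.92 for *CT010467.1*, 1.004 for *Gm44012*, 0.69 for *Zrsr1*, 0.90 for *Las1l* and 0.87 for *Gm24730*.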

How the results depend on the processing

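Beside the 127 DEGs of Tph2 +/- C with all libraries, there were 63 to 171 when 1 library was left out, 76 without replicate 4 and 63 without replicate 7 of Tph2 +/- C. Leaving out the 7 controls that have the highest animal numbers gave 30. Leaving out Tph2 +/- C replicates 4, 6, 7 and 8, which were picked after the data were seen, gave 25. With all genes that had at least 1 count in any sample (32233 genes), 485 passed for Tph2 +/- C (117 at an adjusted p below 0.05), 380 after MS, 574 for the difference and 323 for Tph2 -/- C, and the cause was not tested. The settings not named here gave 108 to 180 DEGs. With the replicate number as a block there were 120 DEGs in the fit of 48 samples and 143 higher and 38 lower ones in that of the 16 samples (5 at an adjusted p below 0.05). The numbers were not taken to pair the mice, since only 4 of 8 same-numbered pairs had a correlation of their deviations over 0.1 (range -0.08 to 0.21) and 3 of 8 Tph2 +/- C mice correlated best with their own number.

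The lg2FC of *CT010467.1* turned to 0.034 and 0.017 with DESeq2 without and with a prior, and to 0.0037 without those 7 controls. All other reversals concerned genes that were not called and had small lg2FC. Without the 7 controls they were *Nr3c2* (-0.19), *Gm13872* (0.036) and *Ctcf* (-0.10). Without replicates 4, 6, 7 and 8 they were *Gm45346* (-0.0095), *Cnp* (0.025), *Ctcf* (-0.071) and *Alas2* (0.040). With the GC trend removed they were *Gm42413* (-0.035), *Dlx1* (-0.020) and *Gm13872* (0.0087). With the share of alignments that were not unique as a covariate they were *Gm42413* (-0.012) and *Slc18a2* (0.089). Without the libraries rich in *Gm42418*, *Junb* was at 0.026 and the difference in the percent of pairs without a gene was -0.0686 (two-sided exact permutation p = 0.170). With 1 library left out, *Slc18a2* ranged from -0.11 to 0.014, *Dlx1* from -0.033 to 0.079, *Gm13872* from -0.029 to 0.027 and *Ctcf* from -0.0081 to 0.16. *Gldc* was not tested when the mean was taken over the 16 samples. Genes with few counts are limited by depth.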
